A study of Homo sapiens with 13 samples.

Results

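Accessible regions of chromosome 7 were described in T98G cells, a human glioblastoma line, from a deposited ATAC-seq table of peaks in which every row carries a chromosome, a start and an end. All peaks listed on chromosome 7 were taken, which gave 15103 of 129347 peaks, or 11.7% of the table. ATAC-seq uses the Tn5 transposase to cut and tag open chromatin, so that the number of reads in a peak measures how accessible the region was. The 3 G1 libraries came from cells starved of serum for 72 hours. The 3 M-phase libraries came from cells starved for 48 hours and then released for 36 hours into medium richer in serum than that of routine culture, with nocodazole, which stops cells in mitosis by blocking spindle microtubules, and harvested by shaking the mitotic cells off. All of these cells are 1 line, and the labels name no engineered allele. The media at harvest differed between the phases in serum and nocodazole. Each M-phase replicate was sequenced in 2 runs on different instruments, whereas each G1 replicate had 1, so that phase, serum, nocodazole and sequencing platform cannot be told apart. The labels do not say whether replicates were separate cultures, and the p-values below therefore measure only the spread between these libraries, which may be technical. Sequenced input DNA and a chromatin fraction of the same line were not analysed here.

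Chromosome 7 is gained in many glioblastomas, often together with loss of chromosome 10. It carries the gene of the epidermal growth factor receptor EGFR, the receptor tyrosine kinase gene MET, the platelet-derived growth factor ligand PDGFA, the cell cycle kinase CDK6, the kinase BRAF and the histone methyltransferase EZH2. A gained chromosome offers more template to the transposase, so a region can collect more reads, and more of its weak regions can be called as peaks, without being more open on each copy. Copy number and accessibility per copy cannot be told apart in these peak counts.

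A peak was called a promoter peak where it overlapped an annotated transcription start site, and a distal peak where it lay over 2 kb from any start site and outside CpG islands, which are stretches rich in CG dinucleotides. On chromosome 7 there were 965 promoter peaks, 12268 distal peaks and 1870 peaks in neither class. Values are scaled counts, that is, read counts brought by the authors to the size of the smallest library. The scaled counts in all peaks of the table summed to between 4191845 and 6000423 per library. The values of each library were whole multiples of 1 step within the rounding of 0.05, which gives 4333935 to 5365024 reads in peaks in the G1 libraries and 12470564 to 14202790 in M-phase before scaling. The G1 values thus rest on fewer reads in all 3 libraries, and the part of depth in the results was not tested. Promoter peaks of VIM, CD44, FN1 and SOX9, genes of mesenchymal and astroglial cells, had mean scaled counts of 616, 181, 329.9 and 530.0, while GFAP, NES and S100B, which are glial and neural progenitor markers, had no promoter peak. Of the other progenitor markers read, OLIG2 had a promoter peak at 96.1 and SOX2 one at 9.67. Among 6 genes of blood, epithelial and liver cells 1 had a promoter peak, EPCAM, at 99.2.

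The sequences of the peaks on which the results below turn are shown as the 200 bases at the centre of each peak, read from the plus strand of GRCh37 (hg19). Capitals mark matches, on either strand, to any of 6 short motifs that were counted in all peaks: TGANTCA, bound by AP-1 factors, TGTTTAC (forkhead factors), TGTGGT (RUNX), GGAATG (TEAD), GGGCGG (the GC box) and CCAAT. They occurred in the central 200 bases of 11.8%, 2.84%, 15.8%, 12.2%, 11.6% and 22.0% of all autosomal peaks, respectively. The first set holds promoter peaks: a peak that rose, the peak with the largest fall, and the pair with the highest counts of the chromosome.
TNRC18 promoter peak, among the largest rises, chr7:5463630-5463829: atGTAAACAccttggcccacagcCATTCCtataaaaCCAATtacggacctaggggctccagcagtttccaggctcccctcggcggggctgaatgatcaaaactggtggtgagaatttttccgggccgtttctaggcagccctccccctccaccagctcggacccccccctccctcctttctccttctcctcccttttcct
PDK4-AS1 promoter peak, largest fall, chr7:95238370-95238569: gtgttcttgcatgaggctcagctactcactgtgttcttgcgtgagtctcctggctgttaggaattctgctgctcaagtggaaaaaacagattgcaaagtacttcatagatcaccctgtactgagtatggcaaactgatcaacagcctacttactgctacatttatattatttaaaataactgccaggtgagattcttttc
CDK6 promoter peak, highest mean count, chr7:92463676-92463875: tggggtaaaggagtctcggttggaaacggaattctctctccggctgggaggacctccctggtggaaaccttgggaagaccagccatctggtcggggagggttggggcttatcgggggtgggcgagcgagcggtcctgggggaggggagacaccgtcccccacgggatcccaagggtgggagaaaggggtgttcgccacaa
SP4 promoter peak, second highest mean count, chr7:21467202-21467401: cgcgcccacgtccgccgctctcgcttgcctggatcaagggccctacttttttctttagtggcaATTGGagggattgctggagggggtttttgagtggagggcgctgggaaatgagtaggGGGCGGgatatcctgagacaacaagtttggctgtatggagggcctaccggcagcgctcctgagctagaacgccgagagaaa

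The second set holds distal peaks: a peak among the largest falls and the pair with the highest counts, of which the HIPK2 peak was also among the largest rises.
SEMA3A intron peak, among the largest falls, chr7:83654822-83655021: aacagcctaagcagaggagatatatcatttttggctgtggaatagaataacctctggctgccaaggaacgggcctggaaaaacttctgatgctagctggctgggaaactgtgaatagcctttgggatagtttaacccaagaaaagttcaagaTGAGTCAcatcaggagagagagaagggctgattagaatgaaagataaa
HIPK2 intron peak, highest mean count, chr7:139366181-139366380: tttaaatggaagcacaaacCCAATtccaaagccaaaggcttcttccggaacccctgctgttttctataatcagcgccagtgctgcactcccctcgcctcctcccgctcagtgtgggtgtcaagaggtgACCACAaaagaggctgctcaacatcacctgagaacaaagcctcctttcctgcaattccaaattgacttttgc
EGFR intron peak, second highest mean count, chr7:55201131-55201330: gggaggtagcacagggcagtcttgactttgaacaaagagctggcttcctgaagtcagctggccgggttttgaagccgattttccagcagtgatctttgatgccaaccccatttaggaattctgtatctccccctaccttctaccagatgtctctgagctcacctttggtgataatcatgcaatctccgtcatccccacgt
The TNRC18 sequence held a forkhead, a TEAD and a CCAAT match, the SP4 sequence a GC box and a CCAAT match, the SEMA3A sequence an AP-1 match, and the HIPK2 sequence a RUNX and a CCAAT match. No match in a window says only that these letters are not in it.

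Chromosome 7 held more peaks than any other chromosome. Chromosome 5 came next with 13972 peaks followed by chromosome 1 with 12499, although chromosome 7 is only the seventh of the 22 autosomes by sequenced length. Per megabase of sequence that is not N, chromosome 7 had 97.2 peaks, which placed it second after chromosome 20 with 110 and before chromosome 22 with 83.2. The median of the other 21 autosomes was 52.6 peaks per Mb, and the lowest value, on chromosome 14, was 13.5. Peaks were called once on merged replicates, so these densities have no replicates and were not tested.

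The excess lay in distal peaks. Chromosome 7 had 79.0 distal peaks per Mb, second of the 22 autosomes, against 31.9 over the other 21 autosomes pooled. Its promoter peaks, at 6.21 per Mb, ranked 9 of 22 and were close to the pooled value of 5.81 for the other autosomes, with 6.01 protein-coding genes per Mb on chromosome 7 ranking 14. As a result there were 12.7 distal peaks for each promoter peak, a ratio exceeded on chromosome 5 alone, where it was 13.1. For every 100 protein-coding genes of chromosome 7 there were 77.0 promoter peaks at a protein-coding start site, second of 22 after the 78.2 of chromosome 5. The rank changed with the strength of the peaks counted. Counting peaks of all classes whose mean was at least 10 scaled counts, chromosome 7 had 49.4 peaks per Mb and stayed second, whereas at a minimum of 50 it had 9.95 and ranked 6. Distal peaks alone at the minimum of 50 numbered 4.33 per Mb and ranked 3, against a median of 2.33 on the other 21 autosomes.

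**Figure D1:**
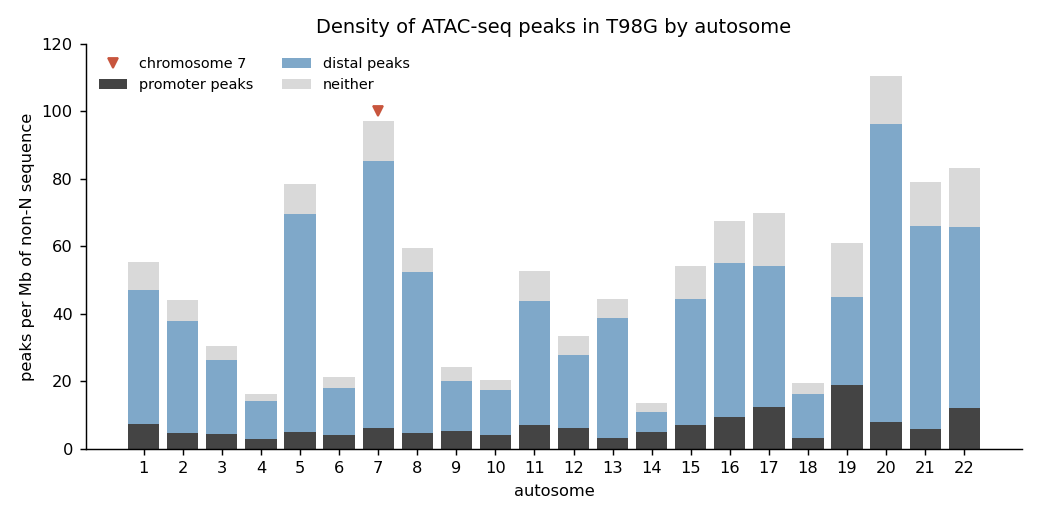
Peaks per Mb of sequence that is not N (vertical axis) on each of the 22 autosomes (horizontal axis), stacked by class, with promoter peaks at the bottom, distal peaks above them and peaks in neither class on top; an arrow marks chromosome 7. The bar of chromosome 7 reaches 97.2 and is made largely of its 79.0 distal peaks per Mb, while its promoter part of 6.21 is similar to that of many other chromosomes.

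At the 559 CpG island promoter peaks of protein-coding genes on chromosome 7, the median scaled count in G1 was 215, second after chromosome 5 with 221, against 153 as the median of the other 21 autosomes. In M-phase the median was 276 and ranked 4, against 216 for the other autosomes. Distal peaks did not stand out in level in G1, where their median was 8.97 scaled counts and ranked 13 of 22. In M-phase it was 9.37 and ranked 6, against a median of 8.9 on the other 21 autosomes.

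Along the chromosome, peaks were counted in 32 windows of 5 Mb, numbered from the end of the short arm. Every one of the 32 windows had more peaks per Mb than the median window of the other autosomes, which had 40 over 513 windows, and 20 of the 32 were above their 90th percentile of 83.9. Window 23 (110 to 115 Mb) was the lowest with 49.8 peaks per Mb. Window 19 (90 to 95 Mb), which holds CDK6, was the highest with 195, above the highest window of any other autosome with 159. Among all 545 autosomal windows with at least 2 Mb of sequence, windows 19, 18, 17 and 20 of chromosome 7 ranked 1, 2, 3 and 6.

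The profile was made of steps rather than of single peaks in density, and it was carried by distal peaks. Distal density ranged from 34.2 to 165 per Mb over the 32 windows, and all 32 lay above the median of 27.2 on the other autosomes. Promoter density ranged from 2.60 to 12.1 per Mb, with 23 windows above the median of 4.40 on the other autosomes and 1 above their 90th percentile of 11.3. Over the 32 windows, promoter density followed the number of protein-coding genes with a Spearman's rho of 0.79 and had a rho of 0.05 with distal density. Distal density had a rho of -0.07 with protein-coding gene density and of 0.64 with the median G1 level of the distal peaks themselves. These correlations are descriptions over neighbouring windows of the same libraries and are given without a test.

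**Figure D2:**
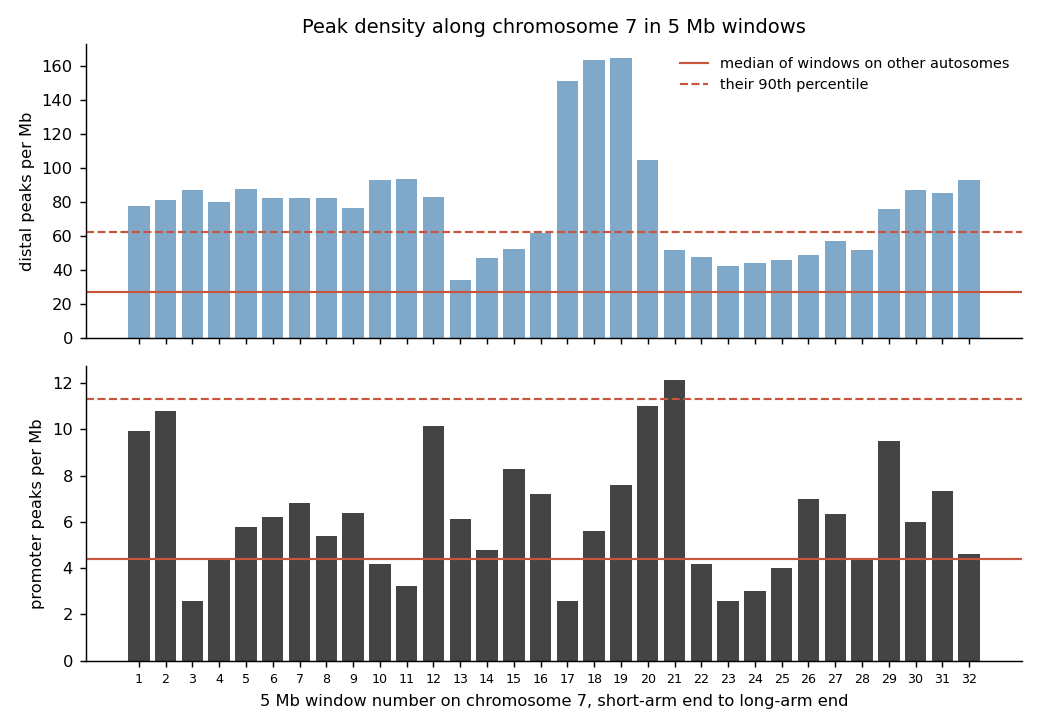
Distal (top) and promoter (bottom) peaks per Mb (vertical axes) in the 32 windows of 5 Mb on chromosome 7 (horizontal axis, window number from the short-arm end). Solid and dashed lines give the median and the 90th percentile of the windows on the other 21 autosomes; distal bars stand above the solid line in every window and reach 165 in window 19, with steps after windows 12, 16, 20 and 28, whereas promoter bars show no such steps.

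Neighbouring windows of like density were joined into 6 stretches after their values had been seen, and the stretches are therefore described without a test. Windows 1 to 12, the short arm and the centromere (0 to 60 Mb), had 102.5 peaks per Mb, and single windows among them ran from 89.4 to 114. This stretch holds PDGFA, the HOXA cluster and, at its end, EGFR. Windows 13 to 16 (60 to 80 Mb) had 67.1 peaks per Mb, and windows 17 to 19 (80 to 95 Mb) had 180, with 164 to 195 in each. The step between them was steep, since the single megabase from 78 to 79 Mb held 33 peaks, the next held 130 and the one after 144. Window 20 (95 to 100 Mb) had 136 peaks per Mb. In windows 21 to 28 (100 to 140 Mb), where MET lies, density dropped to 61.2 per Mb. It was 111 in windows 29 to 32 (140 Mb to the end of the long arm), which hold BRAF and EZH2.

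Distal peaks of the dense stretch at 80 to 95 Mb had the highest median level of the 6 stretches, with 10.9 scaled counts in G1 against 10.4 in window 20, 7.82 in windows 13 to 16 and 7.83 in windows 21 to 28. Among single windows the highest was window 32 at the end of the long arm, with 13.7. Summed distal counts per Mb at 80 to 95 Mb were 3040, 2847 and 3344 in the G1 libraries and 3017, 2932 and 2976 in the M-phase libraries. In windows 21 to 28 they were 759, 735 and 870 in G1 and 748, 743 and 790 in M-phase. These sums grow with the number of peaks by which the stretches were chosen, 160 distal peaks per Mb at 80 to 95 Mb and 48.8 in windows 21 to 28. CpG island promoters of protein-coding genes had medians of 321 scaled counts in G1 at 80 to 95 Mb over 38 promoters, 194 in windows 13 to 16 over 64, 201 in windows 21 to 28 over 146 and 250 in windows 29 to 32 over 70. In windows 1 to 12 the G1 median was 199 over 203 promoters, and in window 20 it was 207 over 38. In M-phase the medians were 293, 274, 249, 319, 284 and 259, in the same order.

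The make-up of chromosome 7 peaks is given beside that of the other autosomes, without a test. Their median width was 234 bases against 255, and with their larger share of distal peaks 6.78% overlapped a CpG island against 13.6%, 7.10% held a GC box against 12.1%, 12.6% were exonic against 20.98%, and the median distance to a start site was 13807 bases against 8612. Within distal peaks, GC content, the intron share and the distance to a start site were closer. The AP-1 share of distal peaks and the CpG island overlap of promoter peaks differed by more percentage points than over all peaks. Over all peaks 9.81% against 12.1% held an AP-1 match. Distal peaks had a median GC content of 47.1% against 48.8%, lay in introns in 55.8% against 53.8%, and were 19.4 kb against 15.2 kb from the nearest start site at the median. Among distal peaks 10.4% held an AP-1 match against 13.9% elsewhere, and among promoter peaks 46.2% held a GC box against 49.3% and 67.6% overlapped a CpG island against 77.2%. Replicates of chromosome 7 promoter peaks correlated over peaks with r of 0.972 to 0.974 in G1 and of 0.983 to 0.987 in M-phase, with 0.932 to 0.946 between the phases. For distal peaks r was 0.863 to 0.871, 0.846 to 0.884 and 0.770 to 0.822, respectively. These r are across peaks, which are not independent replicates.

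The share of accessibility that lies on chromosome 7 was then compared between the phases. Of all scaled counts in autosomal promoter peaks, chromosome 7 held 7.38%, 7.36% and 7.48% in the G1 libraries and 6.57%, 6.62% and 6.64% in the M-phase libraries. The M-phase values lay below all G1 values, with a difference of -0.80 percentage points between 7.41% ± 0.07 and 6.61% ± 0.03 (SD, n = 3 per phase, exact two-sided permutation test p = 0.1, the smallest p that 3 against 3 allows). Of the counts in autosomal distal peaks, chromosome 7 held 12.97%, 12.4% and 12.1% in G1 and 13.1%, 12.8% and 12.8% in M-phase. The phases overlapped there, with a difference of 0.38 points (exact permutation p = 0.3). Promoter counts of chromosome 7 thus made up less of the autosomal total in M-phase, although they summed to 240655 ± 16001 scaled counts there and to 175164 ± 24861 in G1 (SD, n = 3 per phase, exact permutation p = 0.1).

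**Figure D3:**
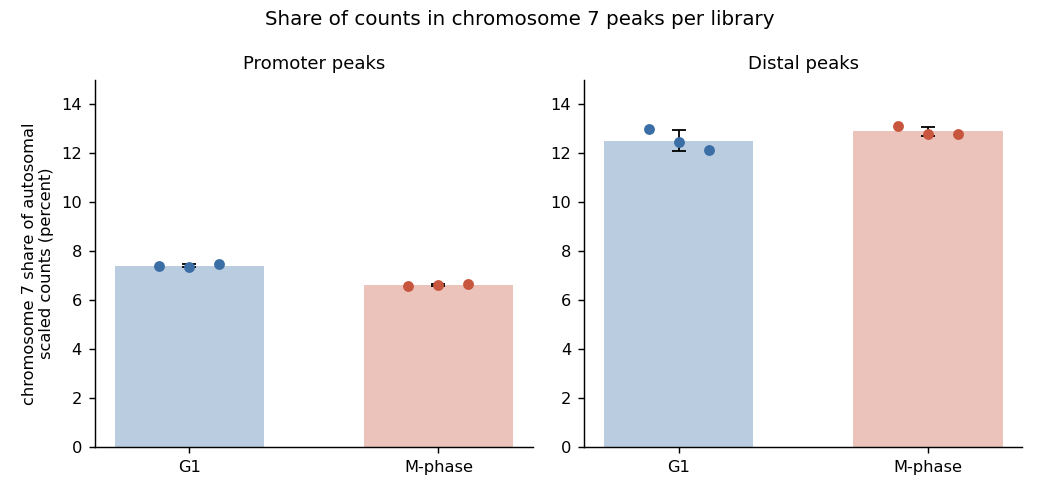
Share of the scaled counts of all autosomal promoter peaks (left) and distal peaks (right) that lies on chromosome 7 (vertical axis, percent), with 1 point per library, bars at the mean and error bars of 1 SD over 3 libraries per phase. The 3 M-phase libraries sit at 6.57 to 6.64% for promoters, below the 7.36 to 7.48% of G1, and the phases overlap for distal peaks.

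The promoter pattern also held for the typical peak. The median promoter peak of chromosome 7 stood above that of the other autosomes by 0.17, 0.16 and 0.14 on the log2(scaled count + 8) scale in the G1 libraries and stood at -0.02, -0.04 and -0.09 relative to it in the M-phase libraries. This change of -0.21 in the difference had an exact permutation p of 0.1, the smallest possible. For distal peaks the difference went from 0.00, -0.07 and 0.00 in G1 to 0.07, 0.03 and 0.03 in M-phase, a change of 0.07 (exact permutation p = 0.1). Unlike the distal shares, these values did not overlap. The distal medians were only 8.97 scaled counts in G1 and 9.37 in M-phase. There 1 read made up 0.78 to 1 scaled counts in G1 and 0.41 to 0.48 in M-phase, so that such differences are near the step between values. The number of chromosome 7 promoter peaks with a scaled count of at least 10 was 883, 893 and 897 in G1 and 900, 902 and 888 in M-phase (exact permutation p = 0.5), and that of distal peaks was 5457, 5619 and 5733 in G1 and 5806, 5586 and 5844 in M-phase (exact permutation p = 0.3). Thus the phases overlapped in how many chromosome 7 peaks were detectable. Within chromosome 7, distal peaks held 48.3% ± 1.5 of the counts in G1 and 41.3% ± 1.5 in M-phase, against 35.7% ± 1.2 and 25.9% ± 0.8 on the other autosomes (SD, n = 3 per phase).

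Single peaks were compared between M-phase and G1 with limma on log2(scaled count + 8), fitted on all 73121 peaks of the table that passed a filter on low values, and a peak was called at a Benjamini-Hochberg adjusted p under 0.05. On chromosome 7 8121 peaks passed the filter, of which 907 were promoter and 6115 distal peaks. Of these, 582 (7.17%) were called higher and 763 (9.40%) lower in M-phase, against 14.3% and 13.1% of all peaks tested. The share of peaks called higher was the lowest of the 22 autosomes. It pools the classes, and promoter peaks were 907 of 8121 tested on chromosome 7 but 15500 of 73121 in the table. Within promoter peaks and within distal peaks the share called higher ranked 21 and 19. The part of this mix in the pooled share was not tested. With the total in peaks made equal between libraries the split was 291 higher (3.58%) and 1697 lower (20.9%), against 8.67% and 24.7% of all peaks, a setting that moved the median of all peaks from 0.02 to -0.24.

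Promoter and distal peaks moved in opposite balance. Among promoter peaks of chromosome 7, 280 (30.9%) were called higher in M-phase and 76 (8.38%) lower, against 43.2% and 5.94% of all promoter peaks tested. The share called higher ranked 21 of 22 autosomes, before chromosome 5 with 29.7%, and the share called lower ranked 5. With an abundance-dependent loess scaling 100 were higher and 258 lower, and with equal totals 216 were lower. All peaks of the table had 10.8% higher and 13.4% lower under loess, and 8.67% and 24.7% with equal totals. Shares of all promoter or all distal peaks under those scalings are not given here. Among distal peaks 250 (4.09%) were called higher and 579 (9.47%) lower, against 5.88% and 15.9% of all distal peaks tested, ranking 19 and 17 of 22, with 75 higher and 1211 lower under equal totals. The number called higher was 156 without the second and 150 without the third M-phase replicate. A smaller share of chromosome 7 distal peaks was thus called in either direction than in the table as a whole. On the log2(scaled count + 8) scale, 86.5% of all chromosome 7 distal peaks changed by less than 1.5-fold, against 81.0% on the other autosomes. That scale understates changes of low values, and only 46.6% of these chromosome 7 peaks had a mean of at least 10 scaled counts. Tested promoter peaks of chromosome 7 had a median log2 change of 0.21 beside 0.39 for all tested promoter peaks, and its tested distal peaks one of -0.01 beside -0.06. The replicate block, a fit with the replicate number as a term, gave 619 higher (7.62%) and 814 lower (10.0%) on the chromosome. Of all peaks tested it gave 14.9% higher and 13.8% lower.

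Sequence features of the called peaks are given as shares, without a test. Of the 280 promoter peaks called higher, 93.6% overlapped a CpG island and 62.1% held a GC box, whereas of the 76 called lower 44.7% overlapped a CpG island, 30.3% held a GC box and 10.5% held an AP-1 match. Of the 250 distal peaks called higher, 28.8% held an AP-1 match, with medians of 16.6 scaled counts in G1 and 38.4 in M-phase. Of the 579 called lower, 19.3% held an AP-1, 20.2% a TEAD, 23.3% a RUNX and 5.87% a forkhead match, with medians of 36.4 in G1 and 13.8 in M-phase. The 5286 distal peaks that were not called held these 4 motifs in 11.9%, 13.6%, 17.6% and 3.23%. Distal peaks called in either direction were wider, with medians of 522 bases among those higher and 416 among those lower beside 385 among those not called. Promoter peaks called higher had a median of 1438 bases and those called lower 935, beside 990 for those not called.

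Sums over 5 Mb windows were compared in the same way. Over promoter peaks 22 of the 32 windows of chromosome 7 were called higher in M-phase and 0 lower, against 69.5% and 1.09% of 550 autosomal windows tested. At an unadjusted limma p under 0.05 there were 23 higher and 0 lower. The changes ran from -0.22 to 0.84 with a median of 0.49, beside 0.54 for all windows. Window 15 (70 to 75 Mb), which holds GTF2I and other genes of the Williams syndrome region, had the largest change: its promoter peaks summed to 5991, 5422 and 6785 scaled counts in G1 and to 10024, 11147 and 11451 in M-phase (log2 change 0.84, SE 0.13, limma adjusted p = 2.14e-09). Window 1 followed with 0.84 ± 0.11 (SE) and window 2 with 0.81 ± 0.11, the latter with FSCN1 as its strongest promoter. The 10 windows not called were windows 3, 11, 12, 13, 17, 18, 19, 23, 25 and 29, which include the whole dense stretch from 80 to 95 Mb. With the total of autosomal promoter peaks made equal between libraries 4 windows were higher and 19 lower. That setting takes out any change shared by all promoter peaks. It therefore cannot show whether the rise of the window sums depends on the scaling. The shares of all autosomal windows under that setting are not given here.

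In the dense stretch itself, 8 of 74 tested promoter peaks (10.8%) were called higher in M-phase and 14 (18.9%) lower, beside 43.2% and 5.94% of all promoter peaks tested. In windows 1 to 12 these were 109 of 333 (32.7%) and 19 (5.71%), and in the neighbouring window 20 they were 19 of 52 (36.5%) and 9 (17.3%). Its summed promoter counts per Mb were 1246, 1193 and 1694 in G1 and 1374, 1453 and 1487 in M-phase, so that the phases overlapped, with the third G1 replicate as the highest library. In windows 1 to 12 they were 1027, 932 and 1186 in G1 and 1439, 1604 and 1628 in M-phase, without overlap. The stretch was chosen for its density after values had been seen, and the difference was not tested.

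Distal sums moved less. Of the 32 windows 1 was called higher in M-phase and 3 lower, against 9.61% and 29.7% of 562 autosomal windows tested, and the median change was -0.03 beside -0.14 for all windows. Window 27 (130 to 135 Mb) was the one that rose: its distal peaks summed to 4413, 4389 and 4995 in G1 and 5230, 5402 and 5679 in M-phase (log2 change 0.24, SE 0.08, limma adjusted p = 0.0109). Windows 7, 23 and 25 (30 to 35, 110 to 115 and 120 to 125 Mb) fell by 0.18, 0.28 and 0.32, respectively. In window 25 the sums were 3069, 3021 and 3851 in G1 and 2669, 2594 and 2628 in M-phase. Windows 23 and 25 lie in the stretch of lowest density, where 16.1% of tested distal peaks were called lower, close to the 15.9% of all distal peaks tested. These counts changed with the libraries used. The number of windows called lower was 6 without the second G1 replicate, 1 without the first or the third M-phase replicate and 0 without the second M-phase replicate, and the number called higher was 4 without the third G1 replicate and 0 without the second or the third M-phase replicate. The replicate block gave 5 windows lower. The shares of all autosomal windows in these fits are not given here.

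**Figure D4:**
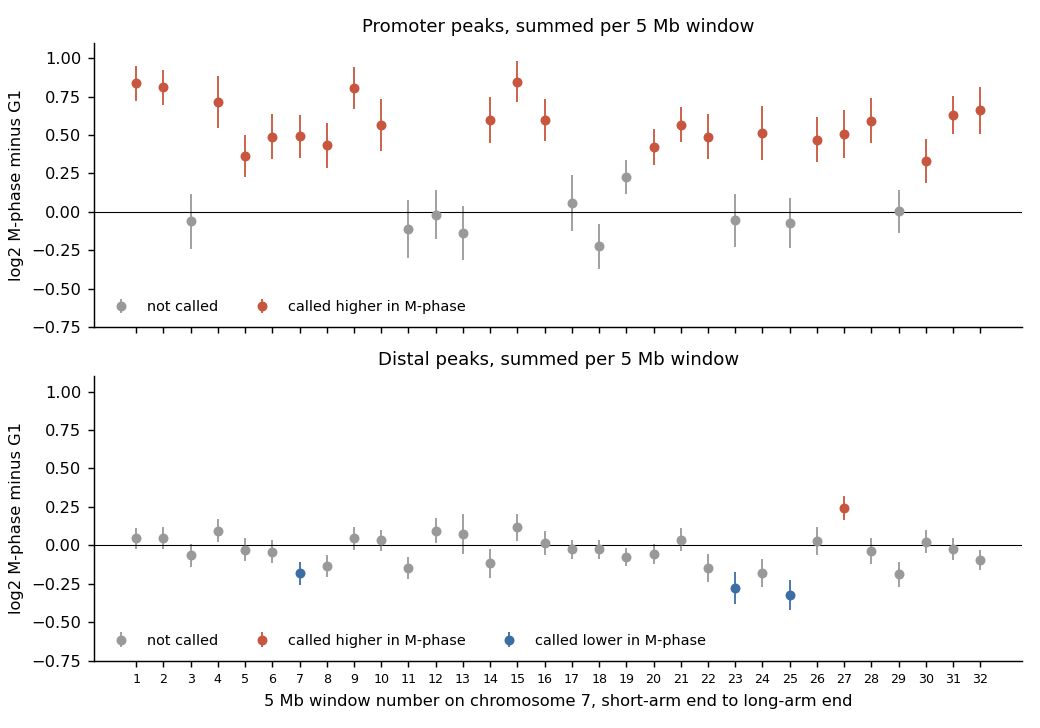
Change of the summed scaled counts between M-phase and G1 (vertical axes, log2 difference with SE from limma, 3 libraries per phase) of promoter peaks (top) and distal peaks (bottom) in the 32 windows of 5 Mb on chromosome 7 (horizontal axis). Most promoter windows lie between 0.33 and 0.84 and are called higher, windows 17 to 19 are not called, and distal windows lie within -0.32 to 0.24.

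The largest promoter rises on chromosome 7 were at AHR, TNRC18, GET4, NUB1 and LINC-PINT. The promoter peak of AHR, the aryl hydrocarbon receptor, a ligand-activated transcription factor (chr7:17337937-17339412), had 165, 145 and 242 scaled counts in G1 and 652, 785 and 690 in M-phase. All M-phase values lay far above G1, with a log2 change of 1.93 (SE 0.17, limma adjusted p = 1.16e-15). At TNRC18, which encodes a chromatin protein (chr7:5462590-5464869), the counts went from 434, 301 and 399 to 1095, 1283 and 1227, a change of 1.66 (SE 0.16). GET4, a factor for inserting tail-anchored membrane proteins, NUB1, an inhibitor of the ubiquitin-like NEDD8 system, and a start site shared by the non-coding LINC-PINT and LINC00513 rose by 1.64, 1.63 and 1.61. These 5 kept their call and direction under each of the 3 other scalings that were run.

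The largest promoter falls were at PDK4-AS1, TRG-AS1, ADAM22, IFRD1 and CLDN12. At the start site of PDK4-AS1, an antisense transcript beside the pyruvate dehydrogenase kinase gene PDK4 (chr7:95237826-95239112), the G1 libraries had 383, 327 and 509 scaled counts and the M-phase libraries 108, 113 and 78.0. The phases were well apart, with a log2 change of -1.94 (SE 0.19, limma adjusted p = 5.70e-14). ADAM22, a neuronal surface protein of the ADAM family (chr7:87563084-87564630), fell from 418, 404 and 752 to 171, 185 and 168, a change of -1.49 (SE 0.18). TRG-AS1, in the T cell receptor gamma locus, changed by -1.85, IFRD1, a transcriptional co-regulator, by -1.45 and CLDN12, a claudin of tight junctions, by -1.27. These 5 also kept their call under the 3 other scalings.

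The strongest promoter of the chromosome was that of CDK6, the D-type cyclin partner that drives G1 progression (chr7:92461300-92466250), with 1145, 1127 and 1210 scaled counts in G1 and 2092, 2163 and 2124 in M-phase. It rose by 0.87 (SE 0.13, limma adjusted p = 1.57e-07), but fell by 0.45 under the loess scaling. SP4, a GC box-binding factor, came second with 1486, 1275 and 1943 in G1 and 1330, 1546 and 1615 in M-phase. The SP4 phases overlapped (log2 change -0.05, limma adjusted p = 0.841), and the value was -1.35 and called under loess. FSCN1, which encodes the actin-bundling protein fascin, followed and rose from 937, 779 and 774 to 1991, 2050 and 2185 (1.32, SE 0.14), with 0.07 and no call under loess.

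**Figure D5:**
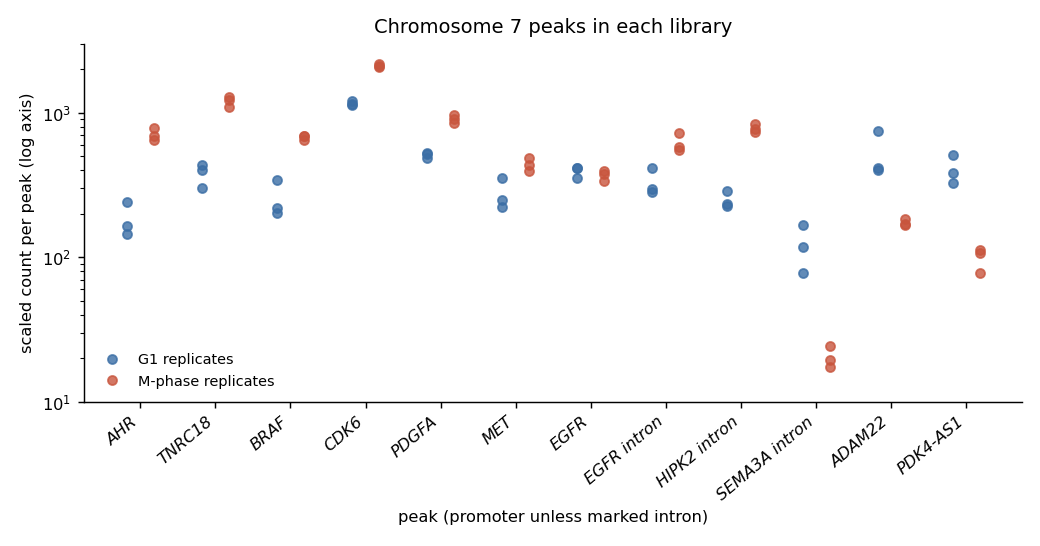
Scaled count (vertical axis, log scale) of 12 chromosome 7 peaks in each of the 3 G1 and 3 M-phase libraries (1 point per library); peaks are at promoters unless marked as intronic. The phases are apart at AHR, TNRC18, BRAF, CDK6 and PDGFA, where M-phase is higher, and at the SEMA3A intron, ADAM22 and PDK4-AS1, where G1 is higher, and they overlap at the EGFR promoter.

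Among distal peaks, rises were found in introns and between genes. The last peak of the long arm, 1 of the largest rises (chr7:159127971-159128609, 54 bases from the last base of the sequence) had 26.8, 36.7 and 32 scaled counts in G1 and 141, 141 and 181 in M-phase. All M-phase values lay far above G1, with a log2 change of 2.02 (SE 0.23, limma adjusted p = 6.81e-12) on a scale that understates changes of low values. Rises near chromosome ends were also found elsewhere: of 44 tested peaks within 20 kb of the ends of the other autosomes 24 were called higher and 1 lower. Of all peaks tested, 14.3% were called higher and 13.1% lower. Reads with up to 3 locations were kept at 1 of them, so reads at these ends may be shared between chromosomes.

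An intron of HIPK2, a kinase that phosphorylates p53, held the strongest distal peak (chr7:139364723-139367837), which rose from 226, 233 and 287 to 736, 777 and 838 (log2 change 1.63, SE 0.16, limma adjusted p = 1.15e-13). Intergenic peaks at chr7:41067715-41069268, 219959 bases from SUGCT, and at chr7:73308870-73309897, 33368 bases from TMEM270, rose by 1.76 and 1.64. An EGFR intron held the second strongest distal peak (chr7:55200388-55202073), with 297, 285 and 418 scaled counts in G1 and 580, 553 and 725 in M-phase (0.89, SE 0.17), and with 0.06 and no call under loess. The third, 18882 bases from COL1A2, which encodes a chain of type I collagen, fell from 413, 359 and 618 to 277, 297 and 266 (-0.67, SE 0.17, limma adjusted p = 0.00162).

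The largest distal falls were at peaks of moderate level in G1 and low level in M-phase. A peak 187492 bases from VSTM2A, a gene of fat cell differentiation (chr7:54422141-54422526), had 67.6, 95.3 and 167 scaled counts in G1 and 13.6, 13.6 and 7.70 in M-phase, a change of -2.51 (SE 0.27). The intron of SEMA3A, which encodes a repulsive axon guidance ligand (chr7:83654638-83655204), went from 77.5, 118 and 168 to 24.3, 19.4 and 17.3, a change of -2.13 (SE 0.25). At a peak 55269 bases from the homeobox gene DLX6 the change was -2.09. Peaks whose nearest protein-coding genes are EEPD1 and SMIM30 had changes of -2.07 and -2.04. The third G1 replicate was the highest library at all 5 of these peaks, and each fall kept its call without it.

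Growth signalling genes of chromosome 7 were read at their promoters. Of 20 genes, 14 had a promoter peak and all 14 were tested, with 5 (35.7%) called higher in M-phase and 1 (7.14%) lower, and a median change of 0.40. All tested promoter peaks of the table had 43.2% higher, 5.94% lower and a median of 0.39, and those of chromosome 7 had 30.9%, 8.38% and 0.21. PDGFA, the ligand, had 515, 527 and 486 scaled counts in G1 and 853, 905 and 963 in M-phase. Its rise of 0.82 (SE 0.15, limma adjusted p = 9.25e-06) became -0.17 under loess. Among receptors, the EGFR promoter (chr7:55086277-55088074) had 416, 352 and 412 in G1 and 380, 398 and 336 in M-phase. It was not called (-0.08, SE 0.17, limma adjusted p = 0.779), but was called lower at -0.43 with equal totals and at -0.84 under loess. MET, the receptor of hepatocyte growth factor, had 248, 221 and 353 in G1 and 437, 483 and 394 in M-phase and rose by 0.68 (SE 0.17, limma adjusted p = 0.00130), with -0.03 under loess. The gene of its ligand, HGF, had no promoter peak. EPHB6, a kinase-dead ephrin receptor, was the 1 member that fell (-0.91, SE 0.19).

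Downstream of the receptors, BRAF, the kinase that activates MEK, went from 220, 202 and 343 to 648, 688 and 694, with a rise of 1.42 (SE 0.17, limma adjusted p = 9.71e-11) that was 0.63 and still called under loess. RAC1, a small GTPase of cell movement, rose by 1.09 (SE 0.17) and by 0.34 under loess. GLI3, an effector of hedgehog signalling, was not called (0.39, limma adjusted p = 0.0633) and was at -0.52 under loess.

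Over whole gene bodies, calls are read beside 14.3% higher and 13.1% lower of all peaks tested, and 5.88% and 15.9% of distal peaks. CDK6 held 40 peaks in 232 kb, of which 31 were tested, 8 called higher and 3 lower. EGFR held 22 peaks in 193 kb, with 2 of 18 tested called higher. Summed over the gene, EGFR peaks had 1698 ± 215 scaled counts in G1 and 2165 ± 163 in M-phase (SD, n = 3 per phase). The total over all peaks of the table rose in like proportion, from 4531188 ± 489581 to 5775901 ± 270671. The EGFR sum was not tested. MET held 9 peaks, of which 3 of 7 tested were called higher, and BRAF held 12 peaks, of which only the promoter was strong enough to be tested. PDGFA and EZH2 held 1 and 2 peaks. Per 100 kb of gene these were 17.3 peaks at CDK6 in the dense stretch, 11.4 at EGFR, 7.13 at MET, 5.84 at BRAF, 4.34 at PDGFA and 2.60 at EZH2.

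Genes of cell division and DNA replication all had promoter peaks. Of the 21, 12 (57.1%) were called higher in M-phase and 1 (4.76%) lower, with a median change of 0.50, beside 43.2%, 5.94% and 0.39 for all tested promoter peaks. XRCC2, a factor of homologous recombination, rose by 1.33 (SE 0.18) from 162, 120 and 165 scaled counts to 356, 415 and 386. RFC2, a subunit of the clamp loader for replication, rose by 1.05 (SE 0.18). CDK13, a kinase of transcription elongation, rose by 0.61 (SE 0.15), but was at -0.51 under loess. ORC5, a subunit of the origin recognition complex, was the 1 member that fell, from 172, 166 and 260 to 94.3, 147 and 123 (-0.67, SE 0.20, limma adjusted p = 0.00681), a call that was lost without the third G1 or the first M-phase replicate (limma adjusted p = 0.0511 and 0.102).

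Matrix, adhesion and actin genes had 18 promoter peaks among 21 genes, with 8 (44.4%) called higher by limma, 0 lower (10 and 0 at an unadjusted p under 0.05) and a median change of 0.41, close to the 43.2% and 0.39 of all tested promoter peaks. Beside FSCN1, ACTB, which encodes cytoplasmic actin, rose by 1.07 (SE 0.15; 0.03 and no call under loess), and ARPC1A, a subunit of the actin-nucleating Arp2/3 complex, rose by 1.14 (SE 0.19; 0.66 under loess). ARPC1A had 130, 131 and 124 scaled counts in G1 and 225, 344 and 324 in M-phase.

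Transcription factors and chromatin genes had 25 promoter peaks among 28 genes, with 14 (56.0%) called higher and 2 (8.0%) lower and a median change of 0.52, beside 43.2%, 5.94% and 0.39 for all. KMT2C, a histone H3 lysine methyltransferase, went from 467, 369 and 434 to 1134, 1385 and 1354 (1.59, SE 0.15), at a start region shared with a pseudogene. The promoter shared by CBX3, a heterochromatin protein, and HNRNPA2B1, an RNA-binding protein, rose by 1.47 (SE 0.15). EZH2, the catalytic subunit of Polycomb repressive complex 2, had 389, 361 and 431 in G1 and 565, 609 and 693 in M-phase, with a rise of 0.65 (SE 0.16, limma adjusted p = 0.000922) that was -0.21 under loess. MNX1, a motor neuron homeobox gene, fell from 137, 169 and 201 to 73.3, 87.8 and 78.4 (-0.998, SE 0.21). FOXP2, a forkhead factor of the developing brain, was the other that fell (-0.73, SE 0.27, limma adjusted p = 0.0315), a weak peak whose call was lost under loess and without any of 4 libraries (limma adjusted p of 0.0869 to 0.138).

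Housekeeping genes of the proteasome, translation and mitochondria had 21 distinct promoter peaks for 22 genes. Of the 22, 12 (54.5%) were called higher and 1 (4.55%) lower, with a median change of 0.51, beside 43.2%, 5.94% and 0.39 for all tested promoter peaks. GTF2I, a general transcription factor with near-identical copies nearby, rose by 1.26 (SE 0.16), and SBDS, a ribosome maturation factor with a pseudogene copy on the same chromosome, by 1.27 (SE 0.17), so that reads at both may be shared between copies. NDUFA4, a subunit of the respiratory chain, was the 1 that fell, from 368, 369 and 553 to 215, 237 and 303 (-0.74, SE 0.18, limma adjusted p = 0.000591).

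Stress and signal response genes had 5 of 7 promoter peaks called higher by limma, 0 lower (6 and 0 at an unadjusted p under 0.05) and a median change of 1.08, beside 43.2% higher, 5.94% lower and a median of 0.39 for all tested promoter peaks. Beside AHR, the members with the largest changes or counts included MAFK, a small Maf factor of the antioxidant response (1.22, SE 0.16; 0.32 under loess), and NAMPT, an enzyme of NAD synthesis (1.11, SE 0.16; 0.14 and no call under loess). INSIG1, a sterol-regulated protein of the endoplasmic reticulum, went from 894, 738 and 1068 to 1756, 1906 and 2004 (1.08, SE 0.14), with -0.17 under loess.

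Zinc finger genes, whose clusters lie around the centromere and at the end of the long arm, had 25 distinct promoter peaks for 26 of 34 ZNF genes. Of the 26, 10 (38.5%) were called higher and 2 (7.69%) lower, beside 43.2% and 5.94% of all tested promoter peaks, with a median change of 0.20 beside 0.39 for all and 0.21 for tested chromosome 7 promoters. ZNF12 rose by 1.29 (SE 0.19) from 116, 137 and 146 to 279, 339 and 402. ZNF736 fell from 340, 322 and 492 to 164, 148 and 165 (-1.21, SE 0.18, limma adjusted p = 8.82e-08), and ZNF107 by 0.54 (SE 0.19, limma adjusted p = 0.0208), a call lost without any 1 of 5 libraries (limma adjusted p of 0.0538 to 0.0870).

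The last lists are short and are read beside 43.2% higher and 5.94% lower of all tested promoter peaks. Of 14 genes of the HOXA cluster, 8 had a promoter peak, in 6 distinct peaks. HOXA3 was the 1 called higher, and 0 were lower by limma, also at an unadjusted p under 0.05 (HOXA3 0.62, SE 0.21, limma adjusted p = 0.0197), a call lost under equal totals and loess, while HOXA4 was at -0.17. All 7 imprinted genes had a promoter peak, and 6 were tested, while that of MEST did not pass the filter. The promoter shared by PEG10 and SGCE was the only peak of them called higher (0.89, SE 0.14, and -0.37 under loess). It had 917, 803 and 1291 scaled counts in G1 and 1694, 1940 and 1859 in M-phase. Promoter peaks of the 4 Y RNA genes, short non-coding RNAs made by RNA polymerase III, had changes of 0.06 to 0.46, of which 0 were called by limma and 2 were higher at an unadjusted p under 0.05, with RNY1 at 0.06 and -0.43 under loess, RNY3 at 0.41 and -0.06, and RNY5 at 0.46 and -0.0019.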

How the data were processed

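ATAC-seq of T98G cells in G1 and M-phase was read from the deposited table of peaks, with 3 columns per phase. As the study's methods describe, the authors filtered adapters (cutadapt), cut the last base at the 3′ side of each read, and aligned with Rbowtie (QuasR) to hg19, where a read with up to 3 locations was kept at 1 of them. They took out mitochondrial reads (samtools) and called broad peaks in the joined replicates of a phase (macs2). Tool versions, a shift of read ends for Tn5 and the way the 2 runs of each M-phase replicate were joined are not given in the sources used here. The signal values are counts in peaks that the authors scaled to the smallest library and rounded to 0.1. Reads before scaling were read from the step between values in each column. The table's 2 columns of the authors' own comparison were not used, and the number of unused per-sample columns was 0.

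Peaks were annotated with GENCODE release 44 on GRCh37. CpG islands were found in the reference sequence (score of 17 per CpG, at least 200 bases, 50% GC and an observed over expected ratio of 0.6). The trend model of limma 3.58.1 (R 4.3.3) was run on log2(scaled count + 8) for all peaks with at least 3 libraries at a value equal to 10 in a library of median total and a sum of at least 15, and on sums over 5 Mb windows with at least 3 peaks of the class and a mean sum of at least 100, with Benjamini-Hochberg adjustment over all peaks or windows tested. A fold change on this scale understates that of low values. Single values per library were compared by the exact two-sided permutation test in Python 3.11.15. The fits were tested on simulated data. The members, gene lists and tests were chosen with earlier results of these data known. Named were, for each list, members with the highest count or the largest change, the 5 largest rises and falls of promoter and of distal peaks (called, with a mean of at least 50 and phases that do not overlap), the 3 highest of each class, windows of extreme density or called, and 6 genes always. The list members that fell were named after their values were seen, and a few items that the rule names are not reported here. Alternatives were other scalings, filters, pseudocounts, definitions, window sizes, the replicate block and leaving out each library.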

Additional observations from a re-analysis of the deposited data

How the results depend on the processing

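Among alternative values of the main results, 126 stayed close to the value reported and 34 moved. With equal totals in peaks, chromosome 7 had 216 promoter peaks lower, 75 distal peaks higher and 1211 lower, 4 promoter windows higher and 19 lower, 6 distal windows higher, and differences of -14.7 promoter and -998 distal peaks with a scaled count of at least 10 (main values 5.67 and 142; -3.67 and -91.0 at a minimum of 20). For the window counts among these, the autosomal total of the class was made equal, not the total of all peaks. Under the loess scaling 100 promoter peaks were higher and 258 lower, and the median promoter difference was -0.25. With at least 10 in every library 319 distal peaks were lower. Protein-coding start sites alone gave a promoter share difference of -0.74 points, and a pseudocount of 1 a distal median difference of 0.12. Windows of 10 Mb gave 11 promoter windows higher and 0 distal windows higher and 1 lower, windows shifted by 2.5 Mb gave 5 distal windows lower, and without the highest peak of each window 1 promoter window was lower. Density was 94.9 per Mb over the full length and 49.4 for peaks with a mean of at least 10. Leaving out each library gave 150 to 277 distal peaks higher, 0 to 1 promoter windows lower, 0 to 4 distal windows higher and 0 to 6 lower. The shares of all promoter peaks, distal peaks or windows under these settings are not given here, and the cause was not tested.

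The replicate block gave 5 distal windows lower against 3 and moved no other count by over 1.5 times. Deviations of libraries with the same number correlated at 0.006, -0.01 and 0.028, so the numbers show no pairing. The planned count test was not run: it was set to need the step of 1 read in the low values alone, which 2 of the 6 columns showed, although over all values the 6 columns held whole multiples of a step within rounding.

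Of the named peaks, reversals under loess gave -0.17 (PDGFA), -0.52 (GLI3), -0.45 (CDK6), -0.51 (CDK13), -0.37 (PEG10), -0.43 (RNY1), -0.0019 (RNY5), -0.055 (RNY3), -0.17 (INSIG1), -0.032 (MET) and -0.21 (EZH2), and that under equal totals -0.29 (RNY1). Leaving out 1 library gave -0.19 to 0.12 for SP4, -0.33 to 0.045 for HOXA4 and -0.047 to 0.20 for RNY1, none of which was called in any of these fits.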
